A study of Mus musculus with 6 samples.

Results

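The enzymes that take glucose to pyruvate and lactate, turn pyruvate into acetyl-CoA and run the citrate cycle were followed in ribosome-bound mRNA. The tissue was the mouse choroid plexus (ChP), whose epithelium makes cerebrospinal fluid. The members were chosen by name: 39 gene symbols, all found among the 24354 rows of the expression table, of which 17 were glycolytic, 18 mitochondrial, 3 kinases of pyruvate dehydrogenase and 1 the cytosolic malate dehydrogenase Mdh1. ChP was taken from adult mice at postnatal day 60 and from embryos at E16.5, with 3 samples at each age. Both groups carried the same alleles, FoxJ1:cre together with the bacTRAP transgene EGFP:L10a, and no treatment was given to either. In translating ribosome affinity purification (TRAP) an EGFP-tagged ribosomal protein is switched on by Cre and the mRNA on the tagged ribosomes is pulled down, so that only cells in which the Foxj1 promoter, which is active in ciliated cells, has driven Cre are tagged. The study's methods describe each sample as a pool of lateral ventricle ChP from several mice or litters, and GEO's design text speaks of 3 mice per age, so the number of animals behind a replicate is unclear. The question was how transcripts for glycolytic and for mitochondrial steps differed between the ages.

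Glycolysis splits glucose into pyruvate in the cytosol, with a preparatory phase that spends ATP and a pay-off phase that earns it. Lactate dehydrogenase converts pyruvate to lactate and back. Inside the mitochondrion the pyruvate dehydrogenase complex turns pyruvate into acetyl-CoA, under the brake of the pyruvate dehydrogenase kinases. The citrate cycle oxidises acetyl-CoA and feeds electrons to the respiratory chain, and ChP epithelium, which pumps ions without pause, is known for its dense mitochondria.

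Promoter sequences are shown for the lactate dehydrogenase pair, whose balance differed between the ages without overlap, and for Idh2 and Ogdhl, which had the lowest and the highest log2 change among the citrate cycle enzymes. Each is the run of 250 bases before a RefSeq transcript start on GRCm38.p6, read 5′ to 3′ on the gene's strand, and capitals mark ACGTG on either strand, the core of the element bound by hypoxia-inducible factors, including where it lies inside CACGTG.
Ldha, chr7:46845554-46845803, plus strand: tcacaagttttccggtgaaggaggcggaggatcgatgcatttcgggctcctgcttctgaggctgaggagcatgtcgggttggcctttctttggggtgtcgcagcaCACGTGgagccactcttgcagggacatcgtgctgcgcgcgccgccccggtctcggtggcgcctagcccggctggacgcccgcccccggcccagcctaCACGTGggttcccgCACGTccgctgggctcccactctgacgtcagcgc
Ldhb, chr6:142507958-142508207, minus strand: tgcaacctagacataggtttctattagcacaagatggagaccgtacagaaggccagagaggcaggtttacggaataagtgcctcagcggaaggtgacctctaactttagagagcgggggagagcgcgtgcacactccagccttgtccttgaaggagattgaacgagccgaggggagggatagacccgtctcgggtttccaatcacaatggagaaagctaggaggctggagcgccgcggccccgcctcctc
Idh2, chr7:80115351-80115600, minus strand: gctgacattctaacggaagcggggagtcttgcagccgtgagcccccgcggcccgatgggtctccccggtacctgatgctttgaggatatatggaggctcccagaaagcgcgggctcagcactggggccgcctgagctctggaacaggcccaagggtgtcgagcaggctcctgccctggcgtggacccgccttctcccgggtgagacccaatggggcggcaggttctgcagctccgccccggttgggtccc
Ogdhl, chr14:32321769-32322018, plus strand: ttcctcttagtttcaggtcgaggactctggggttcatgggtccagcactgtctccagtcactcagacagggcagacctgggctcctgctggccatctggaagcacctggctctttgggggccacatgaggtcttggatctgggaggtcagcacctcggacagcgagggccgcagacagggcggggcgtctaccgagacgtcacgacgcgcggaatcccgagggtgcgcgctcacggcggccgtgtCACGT
This Ldha promoter held ACGTG at 3 places, that of Ogdhl at 1, and those of Ldhb and Idh2 at 0. A second Ldha promoter, not printed, held it at 0 places. RefSeq gave promoters for 38 of the 39 members, 56 in all, since a gene can have several starts. ACGTG was present in 20 of these 56 promoters (35.7%) and in 5444 of 32851 mouse promoters of the same length (16.6%). Of the 20, 6 are promoters of the 1 gene Ogdh, most of which overlap each other. Counted by gene, 13 of 38 members (34.2%) and 4998 of 27025 genes (18.5%) held it in at least 1 promoter. It stood in 7 of 17 glycolytic and 4 of 17 mitochondrial genes, but in 9 of 28 glycolytic and 9 of 22 mitochondrial promoters, so the order of the sides depends on what is counted. AAGGTCA, the site of oestrogen-related receptors, stood in 4.08% of all promoters on either strand and in 1 of the 56, a promoter of Eno1. These matches describe letters in a window and were not set against any measure of binding.

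The values are FPKM, which scale the fragments of a gene to its transcript length and to all mapped reads, as the authors deposited them. The adult libraries were the shallower ones. A value of 0 was listed for 22.0%, 10.3% and 36.4% of the tested genes in adult replicates 1, 2 and 3, against 3.68% to 4.02% at E16.5. Judged from the spacing of low values, a single read on a kilobase of transcript made 0.256, 0.113 and 0.329 FPKM in adult replicates 1, 2 and 3 and 0.0623 to 0.0790 FPKM at E16.5, so 10 FPKM over 2 effective kilobases stood for about 61 to 178 reads in adult and 253 to 321 reads at E16.5. A single small RNA gene, Mir6236, held 32.7% to 51.7% of the summed FPKM in adult and 13.3% to 15.0% at E16.5. Among the members, 3, 0 and 5 were listed at 0 in adult replicates 1, 2 and 3 and none at E16.5. Markers of ChP epithelium summed to 40027 to 55441 FPKM in adult and 3822 to 4408 FPKM at E16.5. The defining marker Ttr, transthyretin, was listed at 0 in all 3 E16.5 samples and at 20922 to 31302 FPKM in adult. Whether that 0 means absence or a value missed in the quantification was not tested. Of the 12 markers, 5 were higher in adult, Ttr among them, and 2 were lower by limma. Most of the gap between the sums lay in Ttr and Enpp2. Without these the other 10 markers summed to 4205 to 5407 FPKM in adult and 3549 to 4166 FPKM at E16.5. Markers of motile cilia summed to 264 to 408 FPKM in adult and 1404 to 1982 FPKM at E16.5, and those of red blood cells to 0 to 6.49 and 54.1 to 324 FPKM. Marker sums of mesenchyme were 13.3 to 22.0 and 58.6 to 69.4 FPKM, and of the cell cycle 4.83 to 45.8 and 52.3 to 98.3 FPKM. Neurons and progenitors summed to at most 0.0742 FPKM in adult and to 4.39 to 94.3 FPKM at E16.5, endothelium to 0.435 to 18.5 and 12.7 to 39.95 FPKM, macrophages to 0.0695 to 6.82 and 0.584 to 8.48 FPKM, and glia to 4.65 to 73.0 and 7.01 to 18.7 FPKM. The part of depth and of these cell types in the results that follow was not tested.

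Of the 39 enzymes, 2 rose in adult, namely Hk1 and Ogdh, and 3 had higher levels in the embryo, namely Pfkl, Idh2 and Suclg1. The test was limma on log2(FPKM + 1), with Benjamini-Hochberg adjustment over 11601 genes with a mean above 1 FPKM and a threshold of 0.05, and all 39 members passed that filter. The same call was made for 10.9% of all genes, with 2.12% higher in adult and 8.83% the other way, so the members' counts in both directions were near the background. Hk1, Ogdh, Pfkl, Idh2 and Suclg1 were called in 10, 13, 9, 21 and 11 of 24 alternatives of processing, none with the opposite sign. The remaining 34 members were not called, and at an unadjusted p under 0.05 by limma 5 members were higher in adult and 7 lower, against 5.34% and 25.9% of all genes. A log2 change is given as adult minus E16.5 throughout, on the log2(FPKM + 1) scale, which understates the change of low genes. The members had a median change of -0.44, against -0.86 over all genes tested, and so stood 0.41 higher. The median over all genes was -0.60 with no filter on low values and -0.78 with a mean above 5 FPKM. Offsets from it, here and below, thus depend on which low genes are counted. The adult share of all calls was 19.4%, and it was 34.5% with median-ratio scaling, 53% with quantile normalization and 3.54% when every library was given the same sum. In bulk samples, fewer tagged cells and less RNA in each cell cannot be told apart.

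Read without any test, 7 members had every adult value above every E16.5 value, 12 had every adult value below, and 20 overlapped. Among all genes tested, 7.39% lay wholly above and 31% wholly below. Within-library percentiles, which do not depend on how libraries are scaled, put 13 members wholly above in adult and 7 wholly below, against 18.6% and 15.8% of all genes. Percentiles do depend on depth, because genes listed at 0 share a tied rank. That rank was 5.18 to 18.2 in adult and 1.84 to 2.01 at E16.5, as read from C1qa and Cldn5. The part of this in the counts of members and of all genes was not tested. The 13 were Hk1, Gpi1, Pfkm, Pfkp, Aldoc, Ldhb, Pdha1, Dld, Idh3a, Ogdh, Ogdhl, Dlst and Mdh1, and the 7 were Pfkl, Tpi1, Gapdh, Ldha, Cs, Idh2 and Suclg1. Both sets mix glycolytic with mitochondrial steps.

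**Figure D1:**
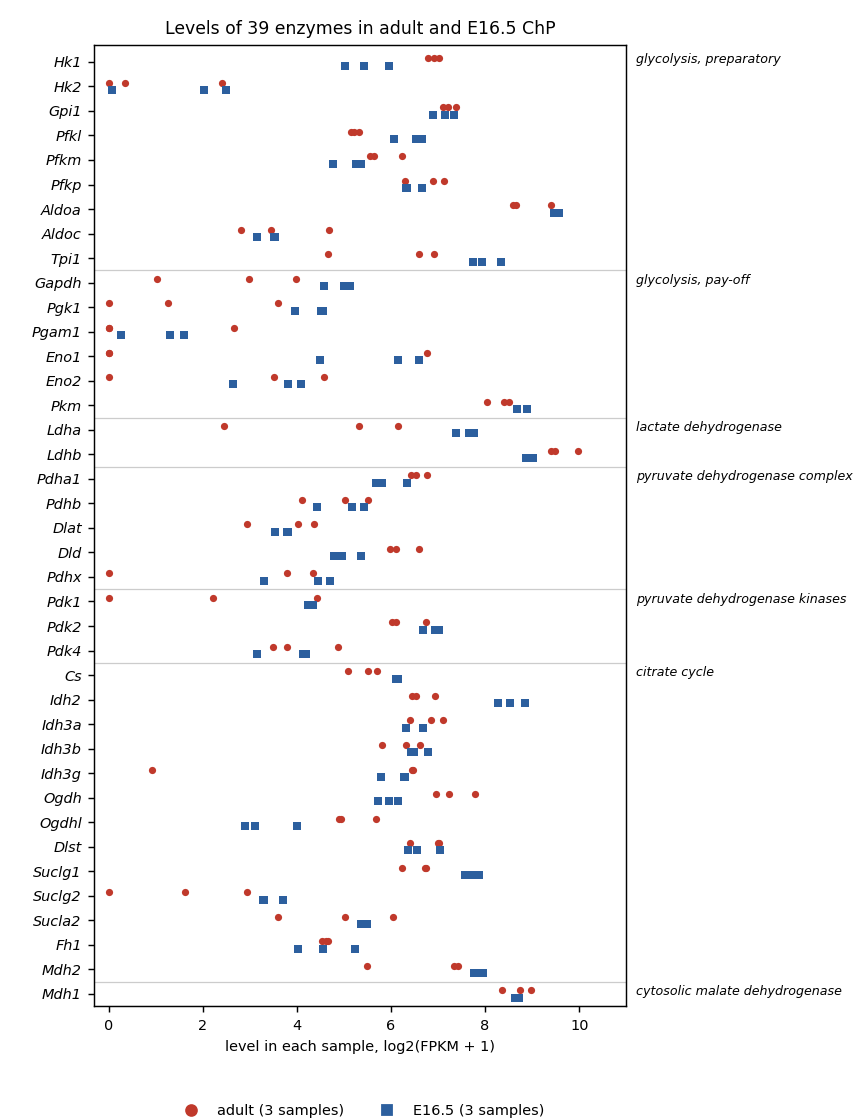
Level of each of the 39 enzymes in each sample as log2(FPKM + 1), ordered by role, with red circles for the 3 adult and blue squares for the 3 E16.5 samples. The 3 adult circles lie to the right of all squares for 7 genes such as Ogdh and to the left for 12 such as Idh2, and several adult circles of the pay-off enzymes sit at 0.

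In the preparatory phase of glycolysis, hexokinase was the step that rose. Hk1 was at 109.5, 129.7 and 119 FPKM in adult replicates 1, 2 and 3 and at 31.4, 42.1 and 61.3 FPKM in E16.5 replicates 1, 2 and 3. Hk1 is the hexokinase that most tissues use to trap glucose as glucose 6-phosphate. The ages did not overlap, and the means were 119.6 ± 10.1 and 44.9 ± 15.1 FPKM (SD, n = 3 each; log2 change 1.44, SE 0.33, adjusted p = 0.0364 by limma). Hk1 lies at chr10:62268855-62379908 on the minus strand of mm10. Leaving out adult replicate 1, adult replicate 2, E16.5 replicate 1 or E16.5 replicate 2 ended its call (adjusted p = 0.0674, 0.0562, 0.0846 and 0.104 by limma), as did giving all libraries the same sum (adjusted p = 0.29). Hk2, the insulin-regulated hexokinase of muscle and fat, was at 0, 0.276 and 4.30 FPKM in adult and at 3.11, 4.63 and 0.0511 FPKM at E16.5, below 5 FPKM in every sample.

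Phosphofructokinase, which commits sugar to glycolysis, was lower in 1 of its 3 isoforms, Pfkl, in adult by the test. Pfkl was at 34.6, 39.1 and 36.4 FPKM in adult replicates 1, 2 and 3 and at 65.7, 91.9 and 99.7 FPKM in E16.5 replicates 1, 2 and 3. Pfkl, the liver-type isoform, was lower in every adult sample than in any E16.5 sample, with means of 36.7 ± 2.23 and 85.8 ± 17.8 FPKM (SD, n = 3 each; log2 change -1.18, SE 0.31, adjusted p = 0.0487 by limma). The gene lies at chr10:77986947-78010083 on the minus strand of mm10. Its call was lost with each library left out but adult replicate 3 (adjusted p = 0.0837 without adult replicate 1, 0.0504 without adult replicate 2, and 0.058, 0.132 and 0.128 without E16.5 replicates 1, 2 and 3, by limma) and with median-ratio scaling (adjusted p = 0.114). Pfkm was at 48.6, 46.1 and 74.1 FPKM in adult replicates 1, 2 and 3 and at 26.3, 40.1 and 37.1 FPKM in E16.5 replicates 1, 2 and 3. The muscle-type isoform Pfkm thus stood above in adult without overlap but was not called (adjusted p = 0.23 by limma), and its log2 change of 0.68 was -0.13 when all libraries had the same sum. Pfkp, the platelet-type isoform, was at 77.4, 139 and 118 FPKM in adult and at 79.2, 79.7 and 100.4 FPKM at E16.5, with overlapping ages.

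Aldolase and triose phosphate isomerase split and interconvert the sugar fragments. Aldoa, the widely expressed aldolase, was the most abundant preparatory enzyme at both ages. It was at 404, 679 and 384 FPKM in adult and at 759.8, 734 and 704 FPKM at E16.5, the adult values lying below without overlap (log2 change -0.63, SE 0.28, adjusted p = 0.165 by limma). Aldoc, the brain-type aldolase, was far lower, at 6.08, 9.88 and 24.5 FPKM and 10.7, 7.88 and 10.4 FPKM. Tpi1 was at 24.5, 96.2 and 119 FPKM in adult and at 215, 321 and 243 FPKM at E16.5, again without overlap (log2 change -1.94, SE 0.57, adjusted p = 0.0681 by limma). Gpi1, which turns glucose 6-phosphate into fructose 6-phosphate, ranged from 137 to 166 FPKM in adult and from 118 to 161 FPKM at E16.5. Of the 9 preparatory enzymes 1 was called in each direction, where 2.12% of all genes were called higher in adult and 8.83% lower. Their median change of 0.11 stood 0.96 higher than the median over all genes.

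The 6 pay-off enzymes had the lowest median change of the roles, and none was called by limma. Their median log2 change of -1.52 had a difference of -0.67 from the median over all genes tested. By limma, 2 of the 6 had an unadjusted p under 0.05, both lower in adult, against 25.9% of all genes. Pkm, pyruvate kinase, was the most abundant of them and was at 261, 361 and 336 FPKM in adult and 410.1, 475 and 410.1 FPKM at E16.5, adult below without overlap (log2 change -0.44, SE 0.23, adjusted p = 0.232 by limma). Gapdh, the dehydrogenase that first yields NADH, was at 1.05, 14.9 and 6.96 FPKM in adult and at 31.2, 23.0 and 33.8 FPKM at E16.5. Pgk1, which makes the first ATP of the pathway, was at 1.42, 11.2 and 0 FPKM and 22.4, 14.5 and 21.8 FPKM. For both, the ages did not overlap (adjusted p = 0.101 each by limma). The enolases varied within the adult group. Eno1 was at 0.000220, 9.92e-05 and 109 FPKM in adult replicates 1, 2 and 3, against 96.1, 21.5 and 70.4 FPKM at E16.5. Eno2, the neuronal enolase, was at 10.4, 22.9 and 0 FPKM in adult and at 13.0, 16.0 and 5.23 FPKM at E16.5. Pgam1, phosphoglycerate mutase, was listed at 0 in adult replicates 1 and 3 and at 5.33 FPKM in adult replicate 2, against 0.21 to 2.06 FPKM at E16.5.

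Among the pay-off enzymes, 4 stood apart in how much of their sequence is repeated elsewhere. Of the 50-base stretches of their transcripts, the length of the reads, 68.0% were shared with another gene for Pgk1, 58.4% for Gapdh, 49.5% for Eno1 and 41.5% for Pgam1, in the GENCODE M21 annotation of mm10. Gapdh shared stretches with 230 other genes, 215 of them pseudogenes. These 4 had a median log2 change of -2.47, and every other member shared at most 30.3% (Pdhb). FPKM of such genes are uncertain, since the counting could split reads between copies, and the part of shared sequence in these values was not tested. The genes called were little touched, with 0% for Idh2, Ogdh and Suclg1, 0.0532% for Pfkl and 1.64% for Hk1, all with its antisense neighbour Hk1os. Whether the counting used the strand is not given in the sources used here.

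**Figure D2:**
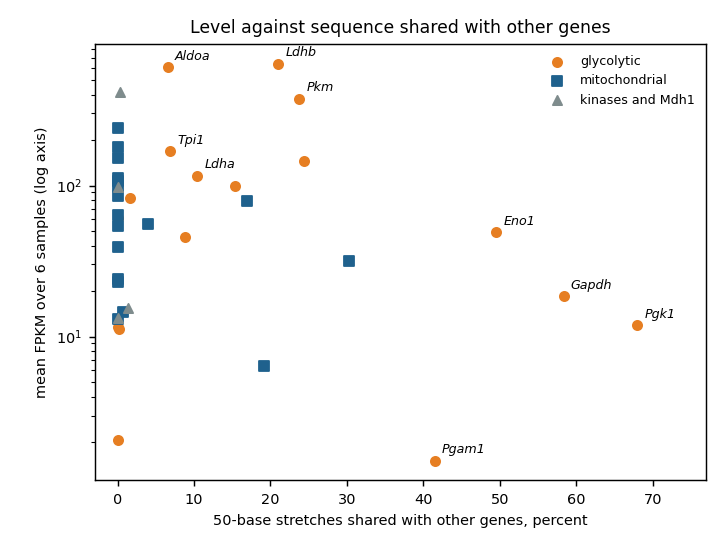
Mean FPKM over the 6 samples (log axis) of each member against the percent of its 50-base stretches found in other genes, with circles for glycolytic, squares for mitochondrial and triangles for the other members. Pgk1, Gapdh, Eno1 and Pgam1 stand apart at 41.5% or more.

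Lactate dehydrogenase is built from Ldha subunits, which favour lactate production, and Ldhb subunits, which favour its oxidation. Ldhb was at 675, 1011 and 714 FPKM in adult replicates 1, 2 and 3 and at 515, 471 and 465 FPKM in E16.5 replicates 1, 2 and 3. Adult replicate 2 was the highest for Ldhb, and the E16.5 samples were the lowest. Ldha was at 38.8, 69.6 and 4.51 FPKM in adult replicates 1, 2 and 3 and at 215, 202 and 167 FPKM in E16.5 replicates 1, 2 and 3. All adult samples were above all E16.5 samples for Ldhb and below them for Ldha. Neither was called (log2 change 0.70, SE 0.24, adjusted p = 0.0974 for Ldhb, and log2 change -2.96, SE 0.85, adjusted p = 0.0646 for Ldha, by limma), and the Ldhb change was -0.13 when all libraries had the same sum. Leaving out adult replicate 3, the library with the lowest Ldha, gave a log2 change of -1.88 for Ldha (adjusted p = 0.0192 by limma), and leaving out adult replicate 2 gave -3.71 (adjusted p = 0.0414). Leaving out any other library gave no call for Ldha. It was called in 8 of 24 alternatives, with adjusted p up to 0.216 by limma. Ldhb made up 94.6%, 93.6% and 99.4% of the summed FPKM of the pair in adult replicates 1, 2 and 3 and 70.5%, 70.0% and 73.6% at E16.5. The means were 95.8% ± 3.11 and 71.4% ± 1.97 (SD, n = 3 each), 24.5 percentage points apart (exact two-sided permutation test, p = 0.1, the smallest that 3 against 3 samples allow). As a ratio, chosen after the values were seen, Ldhb exceeded Ldha 17.4-, 14.5- and 158-fold in adult and 2.39-, 2.33- and 2.79-fold at E16.5. Ldhb shared 21.0% and Ldha 10.4% of their 50-base stretches with other genes. The promoters printed above belong to these genes, which lie at chr7:46841475-46855627 (Ldha, plus strand) and chr6:142490249-142507957 (Ldhb, minus strand) of mm10.

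A share within a library does not depend on how libraries are scaled, so 12 shares of isoforms within a step were compared. For 3 of them every adult value was above every E16.5 value (Ldhb, Pfkm and Pfkp), for 1 below (Pfkl), and 8 overlapped. The shares of Pfkl, Pfkm and Pfkp are parts of 1 sum, so a lower share of Pfkl raises the other shares together. Their non-overlaps are therefore not separate observations, and the FPKM of Pfkp itself overlapped between the ages. Pfkl gave 21.6%, 17.4% and 16.0% of the phosphofructokinase FPKM in adult and 38.4%, 43.4% and 42.0% at E16.5. The means were 18.3% ± 2.91 and 41.3% ± 2.60 (SD, n = 3 each). Pfkm gave 27.8% ± 6.35 in adult and 16.6% ± 1.99 at E16.5, and Pfkp 53.9% ± 7.23 and 42.1% ± 4.32. The liver-type isoform thus held the smaller share of this step in every adult library. Each of these 4 comparisons reached p = 0.1 in the exact permutation test, and p = 0.3 after adjustment over the 12 shares, so none can pass a threshold of 0.05 in this design. The share of Hk1 in hexokinase (98.8% ± 1.95 in adult, 93.7% ± 5.43 at E16.5) and that of Ogdhl in its pair (18.0% ± 1.32 and 13.4% ± 3.81) overlapped between the ages.

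**Figure D3:**
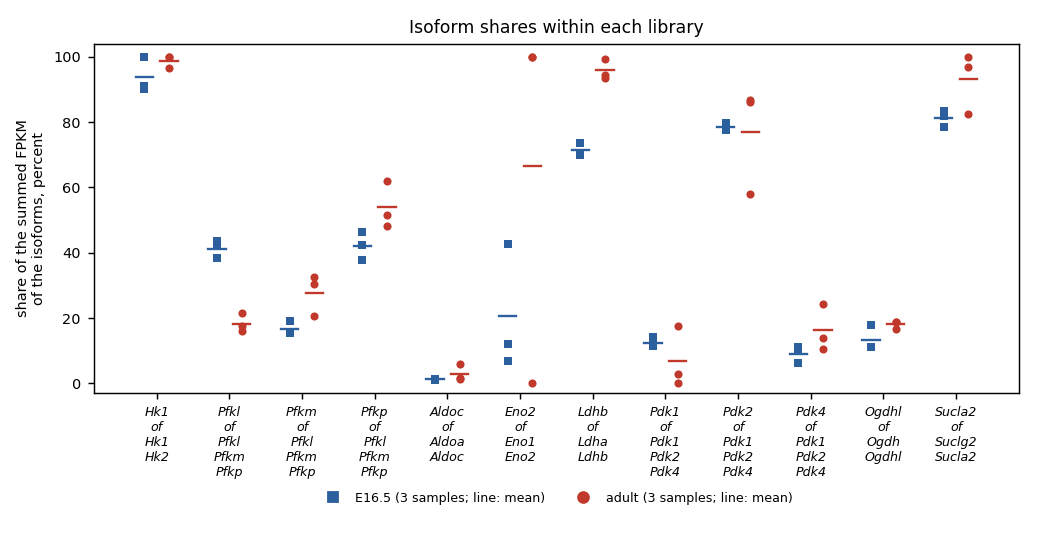
Share of the first-named isoform in the summed FPKM of the isoforms listed under it, in percent, with blue squares for the 3 E16.5 and red circles for the 3 adult samples and a line at each mean. Adult circles lie wholly above the squares for Ldhb, Pfkm and Pfkp and wholly below them for Pfkl.

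At the entry to the citrate cycle, none of the 5 genes of the pyruvate dehydrogenase complex was called. Pdha1, the catalytic subunit that binds pyruvate, was the most abundant at both ages. Pdha1 was at 107, 92.2 and 85.2 FPKM in adult replicates 1, 2 and 3 and at 50.6, 79.8 and 55.3 FPKM in E16.5 replicates 1, 2 and 3. The adult values were above without overlap, but the log2 change of 0.63 (SE 0.30, adjusted p = 0.195 by limma) was -0.19 when all libraries had the same sum. Dld was at 95.7, 67.8 and 62.5 FPKM in adult replicates 1, 2 and 3 and at 40.2, 26.7 and 30.2 FPKM in E16.5 replicates 1, 2 and 3. Dld, the dihydrolipoamide dehydrogenase that this complex shares with the oxoglutarate complex, had the largest positive change of the 5, with means of 75.3 ± 17.9 and 32.4 ± 7.01 FPKM (SD, n = 3 each; log2 change 1.19, SE 0.34, adjusted p = 0.0619 by limma). It passed the threshold without adult replicate 3 (adjusted p = 0.0439) and with no other library left out. Dld was called in 4 of 18 alternatives, with log2 changes from 0.38 to 1.65 and adjusted p up to 0.463 by limma. Pdhb, the partner subunit of Pdha1, Dlat, the acetyltransferase core, and Pdhx, which binds Dld to that core, overlapped between the ages, at 16.3 to 44.6, 6.72 to 19.7 and 0 to 19.3 FPKM in adult. The Pdhx log2 change was -1.44. Over all 5 genes of the complex the median log2 change was 0.07, or 0.93 relative to the median over all genes.

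The kinases that switch the complex off gave no call in either direction. Pdk2, the widely expressed kinase, was the most abundant, at 63.9, 107 and 67.8 FPKM in adult and at 101, 129.7 and 121 FPKM at E16.5. Pdk1, a target of hypoxia-inducible factor, was at 0, 3.69 and 20.6 FPKM and 17.8, 19.3 and 17.8 FPKM, so that the adult samples spread from 0 to above every E16.5 sample. Pdk4, the starvation-induced kinase, was at 10.3, 12.8 and 28.4 FPKM and 7.92, 16.4 and 17.3 FPKM. All 3 overlapped, with adjusted p of 0.23, 0.222 and 0.801 by limma.

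The citrate cycle held changes in both directions. Isocitrate dehydrogenase comes as Idh2, which uses NADP, and as the NAD-dependent Idh3 complex of the cycle proper. Idh2 was at 85.8, 122 and 91.5 FPKM in adult replicates 1, 2 and 3 and at 307, 369.6 and 463 FPKM in E16.5 replicates 1, 2 and 3. Every adult value was below every E16.5 value, with means of 99.7 ± 19.5 and 379.6 ± 78.4 FPKM (SD, n = 3 each; log2 change -1.91, SE 0.27, adjusted p = 0.00961 by limma), the smallest adjusted p of the 39. The gene lies at chr7:80094846-80115392 on the minus strand of mm10. Idh2 was called in 21 of 24 alternatives, with log2 changes from -2.74 to -1.44. The 3 exceptions left out E16.5 replicate 1, 2 or 3 and took the filter on low values from the other 5 samples (adjusted p = 0.0503, 0.0632 and 0.0557 by limma), while with the filter over all 6 samples the same libraries could be left out at adjusted p = 0.0386, 0.049 and 0.0476. Idh3a, the catalytic subunit of the NAD-dependent enzyme, was at 136, 114 and 83.3 FPKM and 102, 78.5 and 78.7 FPKM, with overlapping ages. The ratio of Idh2 to Idh3a, chosen after the values were seen, was 0.629, 1.07 and 1.10 in adult and 3.00, 4.71 and 5.87 at E16.5. Of the other subunits, Idh3b overlapped at 55.2 to 96.7 and 84.8 to 109.5 FPKM, and Idh3g was at 0.91 FPKM in adult replicate 1 against 54.0 to 88.0 FPKM in the other 5 samples.

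The oxoglutarate dehydrogenase complex makes succinyl-CoA, and its first subunit rose. Ogdh was at 123, 149 and 219 FPKM in adult replicates 1, 2 and 3 and at 51.5, 61.3 and 69.5 FPKM in E16.5 replicates 1, 2 and 3. The groups were apart, with means of 164 ± 49.7 and 60.8 ± 9.00 FPKM (SD, n = 3 each; log2 change 1.38, SE 0.31, adjusted p = 0.0354 by limma). Ogdh lies at chr11:6291633-6356642 on the plus strand of mm10. Leaving out any E16.5 library ended its call (adjusted p = 0.103, 0.099 and 0.0746 for replicates 1, 2 and 3 by limma), and it was also lost when all libraries had the same sum (adjusted p = 0.285). Ogdhl was at 28.6, 29.5 and 50.5 FPKM in adult replicates 1, 2 and 3 and at 6.50, 7.67 and 15.0 FPKM in E16.5 replicates 1, 2 and 3. This brain-enriched relative of Ogdh had the highest log2 change of the 39 (log2 change 1.83, SE 0.49, adjusted p = 0.053 by limma), also without overlap, but missed the threshold. Dlst, the succinyltransferase core of the complex, overlapped at 84.0 to 128 FPKM in adult and 80.9 to 132 FPKM at E16.5.

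Succinyl-CoA ligase turns succinyl-CoA into succinate with the gain of GTP or ATP. Suclg1 was at 74.1, 105 and 105 FPKM in adult replicates 1, 2 and 3 and at 231, 189 and 206 FPKM in E16.5 replicates 1, 2 and 3. Suclg1, the alpha subunit common to both forms, was lower in adult without overlap, with means of 94.8 ± 18.0 and 209 ± 21.4 FPKM (SD, n = 3 each; log2 change -1.14, SE 0.27, adjusted p = 0.0371 by limma). The gene lies at chr6:73248382-73276911 on the plus strand of mm10. Its call was lost without adult replicate 1 (adjusted p = 0.0654 by limma), without any one of the E16.5 libraries (adjusted p = 0.103, 0.0852 and 0.0923 for replicates 1, 2 and 3) and with median-ratio scaling (adjusted p = 0.0834). Sucla2, the beta subunit of the ATP-forming enzyme, was at 65.2, 31.4 and 11.1 FPKM in adult and at 39.98, 43.7 and 43.2 FPKM at E16.5. Suclg2, the beta subunit of the GTP-forming enzyme, was at 2.07, 6.67 and 0 FPKM and 8.83, 12.0 and 8.66 FPKM, adult below without overlap (adjusted p = 0.171 by limma). Of the other cycle enzymes, citrate synthase Cs (33.2 to 51.1 FPKM in adult, 68.4 to 69.9 FPKM at E16.5) and mitochondrial malate dehydrogenase Mdh2 (43.9 to 169.6 and 215 to 246 FPKM) were below in adult without overlap and without a call. Fumarase, Fh1, overlapped at 22.3 to 24.4 and 15.2 to 36.6 FPKM. The cytosolic Mdh1, which works in the malate-aspartate shuttle, was at 329.6, 502 and 426 FPKM in adult and at 423, 398 and 409 FPKM at E16.5, one of the most abundant members at both ages.

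**Figure D4:**
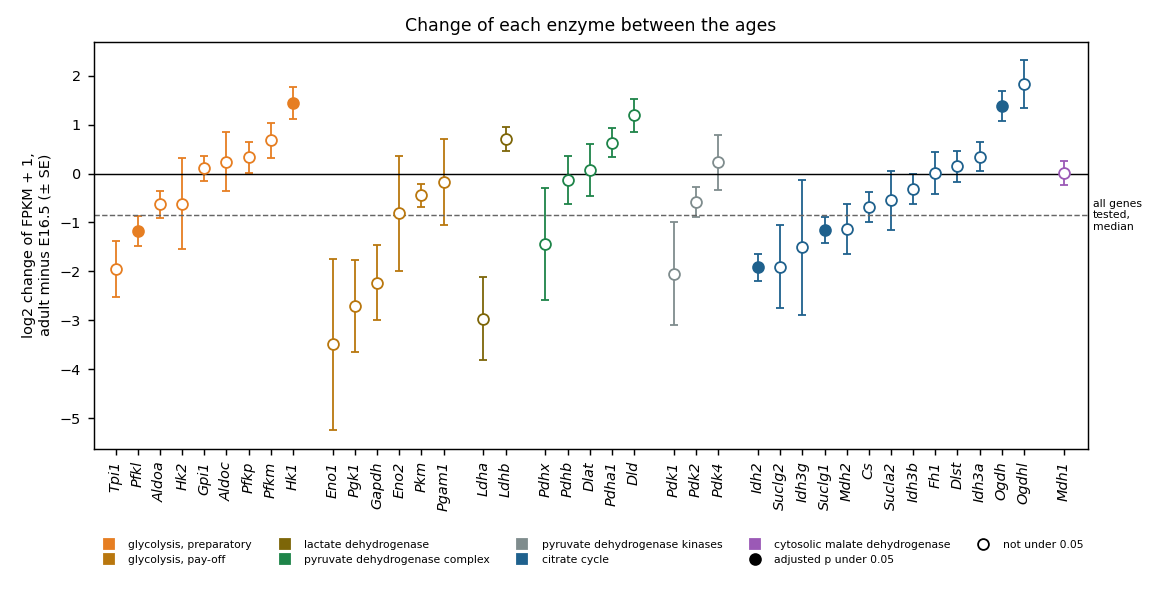
Log2 change of FPKM + 1, adult minus E16.5, with its standard error, for each of the 39 enzymes grouped by role, filled where the adjusted p was under 0.05; the dashed line is the median of all genes tested, -0.86. Hk1 and Ogdh are filled above 0, Pfkl, Idh2 and Suclg1 below it, and the 6 pay-off enzymes all lie below 0, where Pgam1, Eno2 and Pkm turned positive with quantile normalization.

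The glycolytic and mitochondrial sides were then set against each other. The median log2 change was -0.61 for the 17 glycolytic and -0.22 for the 18 mitochondrial members, a difference of -0.39. A related quantity is the median glycolytic minus the median mitochondrial level of each library, on the log2(FPKM + 1) scale. It averaged -0.35 ± 0.64 in adult and -0.0232 ± 0.51 at E16.5 (SD, n = 3 each). Without the 4 members that shared over 40% of their stretches, an alternative chosen after seeing the data, the difference of median changes was -0.22. With a pseudocount of 0.1 or 0.01 in place of 1 that difference was -0.97. Its size thus depended on how values near 0 were treated. Per library, the glycolytic FPKM summed to 1858, 2783 and 2186 in adult and to 2613, 2687 and 2589 at E16.5. The mitochondrial sums were 1159, 1320 and 1151 in adult and 1454, 1563 and 1632 at E16.5, lower in every adult library. That gap rested on Idh2 and on the scaling. Without Idh2, the other 17 mitochondrial members summed to 1073, 1198 and 1060 FPKM in adult and 1147, 1194 and 1170 FPKM at E16.5, and after median-ratio scaling the sums of all 18 were 1329, 1252 and 1223 in adult and 1221, 1263 and 1360 at E16.5. In both alternatives, chosen after seeing the data, the ages overlapped. The glycolytic sum was 1.60, 2.11 and 1.90 times the mitochondrial one in adult and 1.80, 1.72 and 1.59 times at E16.5, and these ranges overlapped. Together the members held 0.659% to 0.852% of the FPKM outside Mir6236 in adult and 0.912% to 1.23% at E16.5. Of the 17 glycolytic members 1 was called in each direction, and of the 18 mitochondrial ones 1 rose in adult and 2 were lower. Among all genes tested, 2.12% were called higher in adult and 8.83% lower, so these counts do not set the sides apart.

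**Figure D5:**
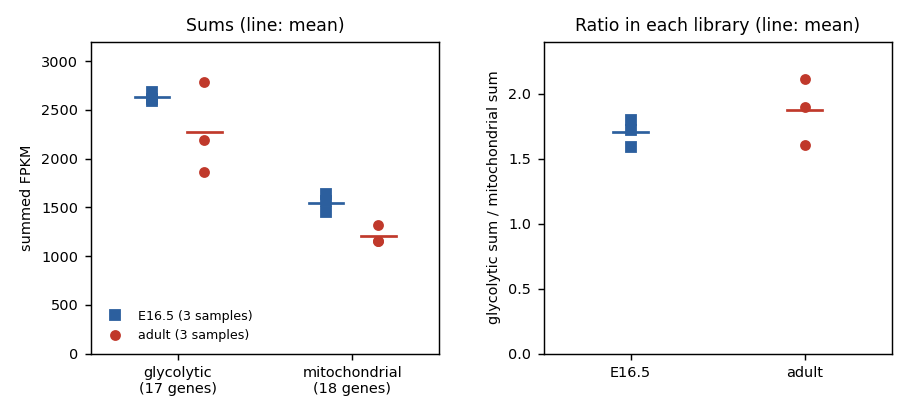
Left, FPKM summed over the 17 glycolytic and the 18 mitochondrial members in each sample; right, the ratio of these sums, with blue squares for E16.5, red circles for adult and lines at the means. The mitochondrial sums are lower in all 3 adult samples, which no longer holds without Idh2 or after median-ratio scaling, and the ratios overlap, at 1.60 to 2.11 in adult and 1.59 to 1.80 at E16.5.

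Of 86 further genes of the surrounding pathways, 67 were tested. Of these 2 rose in adult while 5 were lower, where 2.12% and 8.83% of all genes were called in these directions. Their median log2 change was -0.43, against -0.86 over all genes tested. Among 9 other isoforms of the same enzymes, Eno4, an enolase-related gene, and Idh1, the cytosolic isocitrate dehydrogenase, were higher at E16.5. Eno4 was at 16.1, 7.53 and 4.28 FPKM in adult and at 50.3, 40.1 and 32.1 FPKM at E16.5 (log2 change -2.17, SE 0.54, adjusted p = 0.0438 by limma). Idh1 was at 42.1, 50.8 and 34.9 FPKM and 81.4, 102 and 101 FPKM (log2 change -1.15, SE 0.30, adjusted p = 0.0496 by limma), the same direction as Idh2. Pdk3, a further kinase, lay above in every adult sample without a call. Pdpr, the regulatory subunit of the phosphatase that switches pyruvate dehydrogenase on, rose. It was at 33.1, 36.3 and 60.3 FPKM in adult and at 0.0590, 9.03 and 4.49 FPKM at E16.5 (log2 change 3.46, SE 0.85, adjusted p = 0.0433 by limma). Idh1, Eno4 and Pdpr were called in 10, 8 and 4 of 24 alternatives, always with the same sign, and in 3, 4 and 0 of the 12 fits that left out a library. None of the 8 genes of the pentose phosphate pathway and none of 3 genes of fructose bisphosphate control was called by limma. At an unadjusted p under 0.05, 2 of the 8 were lower in adult, where 25.9% of all genes were, and 1 of the 3 was higher, where 5.34% of all genes were.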

How the data were processed

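Translating ribosome affinity purification was followed by SMARTer Pico libraries with ribodepletion and 50-base single-end sequencing. By the study's methods and the submitters' processing notes, the authors aligned reads to mm10 with STAR 2.4.0 and computed FPKM with Cuffquant from Cufflinks. Which annotation Cuffquant used is not given in the sources used here. The deposited FPKM are relative to mapped reads, so an RNA with a large share of a library's reads lowers all other values there. The share given for Mir6236 is of summed FPKM, and its share of reads was not determined. Read counts were not used here, and the unit carries no depth, which was judged from the spacing of low values.

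Groups are the ages in the sample labels. Genes with a mean above 1 FPKM over 6 samples were tested with limma 3.58.1 (R 4.3.3) on log2(FPKM + 1) with an intensity trend, two-sided, adjusted over 11601 genes at 0.05. Isoform shares were compared by exact permutation. The members and lists were chosen with earlier results of these data known. Values per sample are given for called members and for those without overlap and at least 1 log2 unit from the median of all genes. They are also given for isoforms of a share and for the most abundant member of each role. Among pathway genes they are given for called ones and for some glycogen and regulator genes averaging above 10 FPKM. Other members are mostly given as ranges, and other pathway genes by name or count. A few of the pathway genes are not reported here. Alternatives were another pseudocount, filter, scaling, variance model, threshold, a replicate block and each library left out. P-values by limma weigh the difference of the ages against the spread between these samples, moderated over all genes tested. Since a sample may be a pool, the spread between single animals is not known.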

Additional observations from a re-analysis of the deposited data

How the results depend on the processing

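The 2 members higher in adult became 5 with median-ratio scaling and with quantile normalization (3% and 4.9% of all genes, against 2.12%). They became 0 with the same sum in every library, with that sum taken without Mir6236, without the intensity trend, with the replicate block and at a threshold of 0.01. In that order, 1.03%, 1.68%, 1.36%, 0.965% and 0.483% of all genes were called higher in adult. Of the members, 0, 4, 4, 5 and 5 were higher there at an unadjusted p under 0.05 by limma. The 3 higher at E16.5 became 1 with median-ratio scaling, quantile normalization, no trend or a threshold of 0.01. There the share of all genes higher at E16.5 was 5.69%, 4.34%, 8.18% and 1.14%, against 8.83%. The 3 became 12 with the same sum, 5 with that sum without Mir6236 and 6 with sample weights, where that share was 27.9%, 11.5% and 11.2%. With each library left out the members higher in adult ran from 0 to 3 and those higher at E16.5 from 0 to 7. The shares of all genes ran from 0.236% to 3.04% and from 0.14% to 14.7%. The counts of 0 at E16.5 came only where an E16.5 library was left out and the filter was taken from the other 5 samples, a choice made after seeing the data, which also lowered the calls over all genes to 32, 27 and 47 higher in adult and 25, 16 and 65 at E16.5, from 246 and 1024. There 5, 5 and 4 members were higher in adult and 5 each at E16.5 at an unadjusted p under 0.05. The cause was not tested. The replicate block left 112 and 452 calls over all genes and 0 and 2 members (Idh2 and Ldha). Same-numbered samples did not deviate together (r of 0.000895, 0.0439 and 0.015 across genes), so the numbers were not treated as pairs.

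The difference of the sides (-0.39) was -0.97 with a pseudocount of 0.1 or 0.01, 0.0134 with quantile normalization, and -0.60 to -0.0596 with a library left out. The median change of all genes ran from -1.48 (same sum) to 0.0132 (quantile), so directions of small changes depend on scaling. Of 736 values of members under alternatives, 596 kept sign and call, 56 lost and 34 gained a call, and 50 changed sign, none of a called member. With the same sum, the log2 change was -0.72 for Gpi1, -0.13 for Pfkm and Ldhb, -0.49 for Pfkp, -0.51 for Aldoc, -0.19 for Pdha1, -0.69 for Dlat, -0.55 for Pdk4, -0.48 for Idh3a, -0.67 for Dlst, -0.78 for Fh1 and -0.82 for Mdh1. With the sum without Mir6236 it was -0.0537 for Gpi1, -0.0785 for Dlat, -0.0081 for Dlst, -0.14 for Fh1 and -0.15 for Mdh1. Quantile normalization gave 0.63 for Hk2, 0.84 for Pgam1, 0.25 for Eno2, 0.0839 for Pkm, 0.33 for Pdhb and 0.13 for Idh3b. Median-ratio scaling gave 0.20 for Pdhb and 0.0202 for Idh3b. Sample weights gave -0.0153 for Aldoc, -0.024 for Pdk4 and 0.10 for Pgam1 and Pdhb. With a library left out, changes ran from -0.0061 to 0.21 for Gpi1, -0.27 to 0.66 for Aldoc, -1.06 to 0.27 for Pgam1, -1.76 to 0.53 for Eno2, -0.44 to 0.25 for Pdhb, -0.22 to 0.49 for Dlat, -0.18 to 0.51 for Pdk4, -2.44 to 0.34 for Idh3g, -1.13 to 0.0975 for Sucla2, -0.28 to 0.33 for Fh1 and -0.13 to 0.17 for Mdh1, and from -6.46 to 7.83 percentage points for the Pdk2 share.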

Other observations

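Glycogen genes, listed apart from the 39 enzymes, held 3 calls among 16 tested, all higher at E16.5, against 8.83% of all genes in that direction. Ppp1r3c, which targets protein phosphatase to glycogen and so favours its synthesis, was at 0.103, 0 and 0 FPKM in adult and at 40.1, 39.4 and 30.9 FPKM at E16.5 (log2 change -5.18, SE 0.57, adjusted p = 0.00427 by limma). Pygb, the brain glycogen phosphorylase, was at 42.6, 50.3 and 53.0 FPKM and 127, 145 and 171 FPKM (log2 change -1.58, SE 0.27, adjusted p = 0.0171 by limma). Pgm2, a phosphoglucomutase-family enzyme, was at 5.75, 26.4 and 7.50 FPKM and 83.1, 85.5 and 79.4 FPKM (log2 change -2.85, SE 0.56, adjusted p = 0.0243 by limma). Called genes thus included one that favours glycogen synthesis and one that breaks glycogen down. They were called in 22, 17 and 15 of 24 alternatives. The glycogen synthase Gys1 was at 61.3, 45.5 and 21.2 FPKM and 73.5, 86.2 and 85.6 FPKM, below in adult without overlap and without a call (adjusted p = 0.143 by limma). Phkb was also below, Ugp2 above, and Gyg, Gbe1, Pygl, Pygm and Phkg2 overlapped, with adjusted p from 0.158 to 0.874 by limma.

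None of 13 tested regulator genes was called by limma, and 2 higher in adult and 1 lower had an unadjusted p under 0.05, against 5.34% and 25.9% of all genes. Hif1a, the oxygen-regulated subunit of hypoxia-inducible factor, was at 67.9, 58.3 and 27.5 FPKM in adult and at 72.1, 92.7 and 103 FPKM at E16.5, below without overlap (adjusted p = 0.185). Its partner Arnt was at 5.14, 16.6 and 4.99 FPKM and 34.9, 22.3 and 31.6 FPKM, also below (adjusted p = 0.0791). Epas1, the related subunit, was at 97.5, 151 and 202 FPKM and 49.9, 66.1 and 111 FPKM, with overlap (adjusted p = 0.145). Esrra, an oestrogen-related receptor, was at 10.9, 30.2 and 21.5 FPKM and 8.13, 6.07 and 1.23 FPKM, above without overlap (adjusted p = 0.117). Ppargc1a, its coactivator, was at 35.3, 31.2 and 14.6 FPKM and 15.1, 18.5 and 11.1 FPKM, and Tfam, of mitochondrial DNA, at 3.37, 5.76 and 23.6 FPKM and 18.1, 21.7 and 14.1 FPKM, both with overlap (adjusted p = 0.316 and 0.339).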
